A study of Mus musculus with 7 samples.

Results

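Protein-coding sequence is the stretch of an mRNA that ribosomes translate, from the start codon to the stop codon. DENR is a non-canonical initiation factor that works with MCTS1 on the small ribosomal subunit, in the recycling of post-termination subunits and in reinitiation downstream of short upstream reading frames. After termination at the end of the main reading frame the same subunits must be released near the stop codon. The crosslink sites of DENR that lay inside coding sequences (CDS) of nuclear mRNAs were therefore examined for the genes they fell in, for their distance to start and stop codons, and for their recurrence between libraries.

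Sites came from individual-nucleotide resolution crosslinking and immunoprecipitation (iCLIP), in which ultraviolet light joins a protein to RNA and the stop of reverse transcription marks the contact at a single nucleotide. All libraries were made from mouse embryonic fibroblasts of the NIH3T3 line, with no drug treatment or deletion named in the labels. In the DENR overexpressing group (n = 3) the cells were transiently transfected with Denr in a FLAG-Venus vector, in the non-transfected group (n = 2) endogenous DENR was precipitated with the same anti-DENR antibody from more dishes of cells, and the IgG control (n = 2) used a non-specific antibody. An anti-DENR antibody does not separate tagged from endogenous DENR, so the overexpressing libraries could hold contacts of both. A site was kept where it lay, on the strand of the gene, in the CDS (stop codon included) of a protein-coding transcript of GENCODE release M21, mouse build mm10. The mitochondrial chromosome, the pre-rRNA copy on chromosome 17 and the hotspot genes Lars2 and Acvr2b were left out, which removed 93 CDS entries (86 in Acvr2b, 7 mitochondrial, 0 in Lars2).

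Of 42120 site entries in the 7 lists, 1506 met the rule. They covered 1473 of 23288 distinct positions and lay in 940 genes. For comparison, the same lists held 233 positions in 5′ UTRs and 1023 in 3′ UTRs outside Lars2 and Acvr2b. The value attached to each site is a score, the height of the site, and most were low: 466 entries (30.9%) had a score of 1, 859 had a score of 2 or 3, and 4 had a score of 10 or more. No entry lay in a window that was dense with sites (at least 10 in 2000 nt) in every DENR library, and 7 entries lay in the CDS of 2 or more genes. The bases from 10 nt before to 30 nt after each site were compared with all annotated rRNA. The longest exact match was 15 nt (median 10 nt). A further 63 positions (4.28%), in 40 genes, had a surrounding 31-nt sequence that also occurs in another annotated gene, and their gene of origin is uncertain.

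The DENR overexpressing libraries listed 57, 557 and 611 CDS sites in 48, 347 and 475 genes, and the non-transfected libraries listed 115 and 164 in 81 and 113 genes. The IgG libraries listed 0 and 2. The lists themselves ranged from 4012 to 16137 sites in the DENR libraries and held 19 and 234 in the IgG libraries. As a share of its list, the CDS took 1.42%, 3.45% and 5.98% in the DENR overexpressing libraries and 2.66% and 2.28% in the non-transfected libraries. The non-transfected values lay inside the range of the overexpressing ones, and the means, 3.62% ± 2.29 (SD, n = 3) and 2.47% ± 0.267 (SD, n = 2), differed by less than the SD of the overexpressing libraries, though by more than that of the non-transfected ones (two-sided exact permutation p = 0.8, Benjamini-Hochberg p = 1 for 8 tests). Without DENR overexpressing replicate 3 the difference of 1.15 percentage points was -0.0348.

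**Figure D1:**
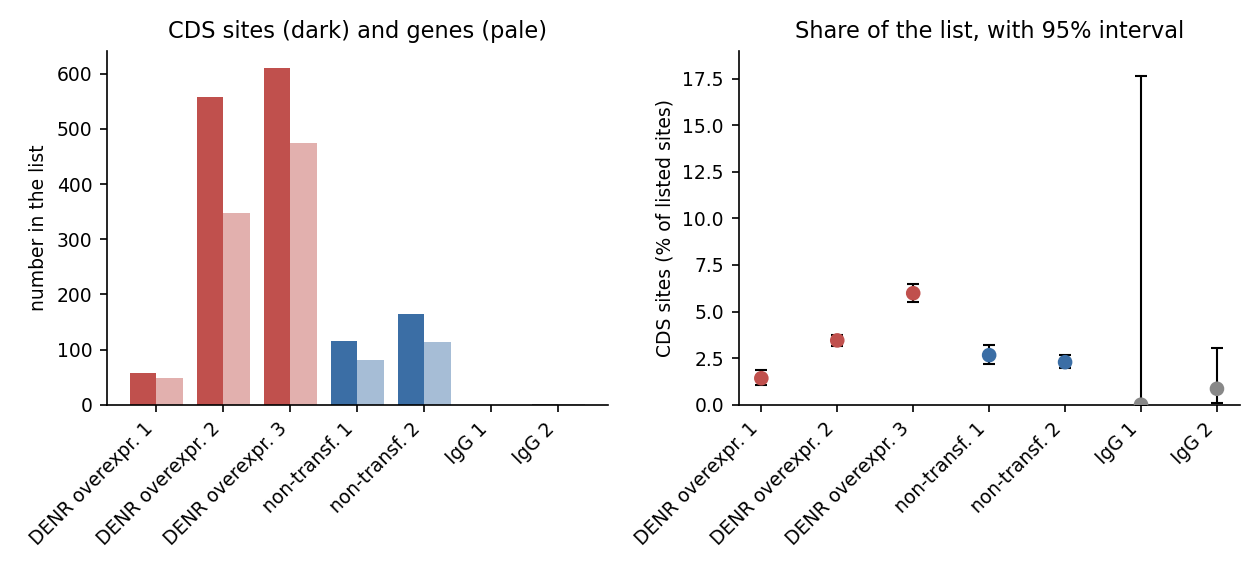
Left, number of CDS sites (dark bars) and of genes with a CDS site (pale bars) in each library; right, CDS sites as a percentage of the listed sites, with exact Clopper-Pearson 95% intervals. DENR overexpressing replicates 2 and 3 carry most of the sites (557 and 611), the 5 DENR libraries lie between 1.42% and 5.98%, and the IgG libraries hold 0 and 2 sites.

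Both IgG lists had a smaller CDS share than each DENR list. The DENR mean was 3.16% ± 1.74 (SD, n = 5) and the IgG mean 0.427% ± 0.604 (SD, n = 2), a difference of 2.73 percentage points without overlap of the groups (two-sided exact permutation p = 0.0952, Benjamini-Hochberg p = 0.533 for 8 tests), and no lower p is possible with 5 against 2 libraries. This separation rested on counting sites. Weighted by score, IgG replicate 2 was at 0.922%, above 3 of the 5 DENR libraries (0.462 to 0.758%), and the difference was 0.499 percentage points (two-sided exact permutation p = 0.381), while at a minimum score of 2 it was 2.28 (p = 0.286 by the same exact permutation). The IgG lists were too short to measure the share well. IgG replicate 1 had 0 of 19 sites in CDS (Clopper-Pearson interval 0 to 17.6%), IgG replicate 2 had 2 of 234 (0.855%, interval 0.104 to 3.05%), and these intervals include some or all of the DENR values. The IgG sites were in Ahnak, a giant scaffold protein, at 9013607 on chromosome 19 and in Dmxl1, which takes part in assembly of the vacuolar ATPase, each with a score of 2.

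Few places in coding sequence were seen by more than 1 library. The 1506 CDS entries covered 1473 positions, whereas all 42120 listed entries, of every RNA class, covered 23288. No clusters of the other listed sites are given here for comparison. When CDS sites of all libraries were chained wherever neighbours on a strand lay within 15 nt, 1068 clusters formed, of which 1052 held sites of 1 library. Of the other 16, 7 held sites of 2 libraries, 7 of 3, 1 of 4 and 1 of all 5 DENR libraries, and 0 held an IgG site. Both DENR groups were present in 14 of these clusters. DENR overexpressing replicates 2 and 3 and non-transfected replicate 2 contributed to 14, 12 and 11 of them, whereas DENR overexpressing replicate 1 and non-transfected replicate 1, the shortest lists, contributed to 2 and 5. The sequences around the clusters seen in 3 or more libraries are shown because these are the coding positions that recurred. Each runs 5′ to 3′ on the mRNA strand for 30 nt. The capital marks the position with the highest score in any single library, with ties going to the lowest coordinate.
Washc1, chr17:66119056-66119085, plus strand: cgaatgtcagactcCatcccaccgctgcca
Fam117a, chr11:95375639-95375668, plus strand: ccagccaccccccaGgaccccccgtcctgc
Kl, chr5:150953027-150953056, plus strand: ccgactccccgatcGtcgtggcgccgtcgg
Atp13a1, chr8:69791512-69791541, plus strand: gggcagcagctggaCccagatacccgaggc
Zfp36, chr7:28377686-28377715, minus strand: actctctgggatccGatcctgatgactacg
Smarca5, chr8:80738935-80738964, minus strand: ccgtgtgctgcgggCtcgggccccgcggac
Srrm3, chr5:135857149-135857178, plus strand: cggaggcagcaggcAgcgaagcggagcgca
Arhgap6, chrX:169257814-169257843, plus strand: aagagagtgtcttcCtttggattgttcacc
Atf2, chr2:73850609-73850638, minus strand: accaggacagccctTtacctcaccccgagt

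Washc1, a subunit of the WASH complex that nucleates actin on endosomes, had the only CDS position listed in all 5 DENR libraries, at 66119070 on chromosome 17. Its score was 6, 41 and 46 after overexpression and 9 and 25 without transfection, and it was absent from both IgG lists. Within each group the scores differed by more than the groups did from each other, and the ranges overlapped. The position is nucleotide 3 of codon 454, 66 nt before the last base of the stop codon. It accounted for 3 of the 4 CDS entries with a score of 10 or more.

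Fam117a held the other one. Its cluster on chromosome 11 spanned 4 nt (95375651 to 95375654) near the middle of the CDS, at codon 200, and summed to scores of 4, 3 and 19 in the DENR overexpressing libraries, 0 in non-transfected replicate 1 and 4 in non-transfected replicate 2. The value of 19 in DENR overexpressing replicate 3 stood above the other 4 libraries.

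Among the clusters of 3 libraries, Kl (klotho, a co-receptor for a fibroblast growth factor) had 6 adjacent positions at 150953037 to 150953042 on chromosome 5. The summed scores were 0, 7 and 6 in the DENR overexpressing libraries and 0 and 11 in the non-transfected ones. Atp13a1, a P-type ATPase of the endoplasmic reticulum, had 0, 10 and 6 against 0 and 6, and Smarca5, the ATPase of ISWI chromatin remodellers, had 0, 4 and 6 against 0 and 6. Srrm3, a splicing regulator, had 0, 2 and 4 against 0 and 4. All 4 showed the same set of libraries: DENR overexpressing replicates 2 and 3 with non-transfected replicate 2. Arhgap6, a GTPase-activating protein, had 0, 3 and 3 against 0 and 2 in that same set.

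Zfp36, which encodes tristetraprolin, an RNA-binding protein that promotes decay of AU-rich mRNAs, differed in its libraries, with scores of 0, 7 and 7 after overexpression and 4 and 0 without transfection. The single position, 28377701 on chromosome 7, is in codon 273. Atf2, a stress-responsive transcription factor, was the 1 cluster of 3 libraries with both non-transfected libraries in it, at scores of 2 and 3, and a score of 2 in DENR overexpressing replicate 2.

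The clusters of 2 libraries were lower. Gsn (gelsolin, which severs actin filaments) had the widest of all clusters, 7 positions over 31 nt, with a summed score of 7 in DENR overexpressing replicate 2 and 2 positions with a summed score of 2 in non-transfected replicate 2. Dnm1, the dynamin of synaptic vesicle endocytosis, and Mapk15, an atypical MAP kinase, were each listed in DENR overexpressing replicate 3 (summed score 4 in both) and non-transfected replicate 2 (summed scores 4 and 3). Rspo1, a secreted enhancer of Wnt signalling, and Blm, a RecQ helicase, joined DENR overexpressing replicate 2 to non-transfected replicate 1, with a summed score of 3 in each for Rspo1 and 2 in each for Blm. Zc3hav1, an antiviral RNA-binding protein, and Espn, an actin-bundling protein, were listed in DENR overexpressing replicates 2 and 3 only, with summed scores of 3 and 3 and of 3 and 2.

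**Figure D2:**
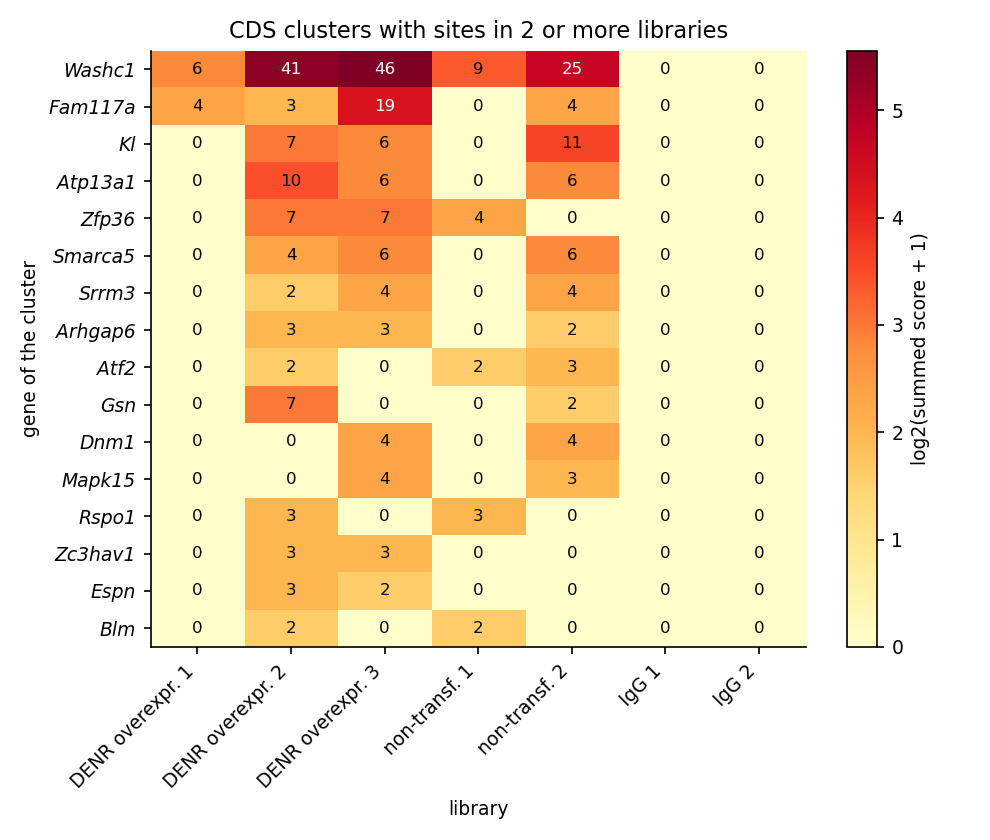
Summed score of the CDS sites of each library (columns) in the 16 clusters that held sites of 2 or more libraries (rows, by gene), printed in each cell and coloured on a log2(score + 1) scale. Washc1 has a score in all 5 DENR libraries (6 to 46), Fam117a in 4, and the IgG columns are at 0.

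Recurring clusters were rich in guanine and cytosine. Over a window of 31 nt their median guanine plus cytosine content was 67.7% (range 45.2 to 87.1%), 11 of 16 were above 60%, and the median of the 1052 single-library clusters was 51.6% (range 16.1 to 90.3%). Their median summed score was 8.5 against 3, which follows in part from adding libraries. None of the 16 had the 31-nt sequence of its top position in another annotated gene, while 39 of the single-library clusters did. Only exact matches in annotated transcripts were sought, so near copies and copies outside transcripts would be missed. They held 6.72 to 8.97% of the CDS score in 4 DENR libraries and 22.2% in non-transfected replicate 2, where Washc1 alone had 25 of 316.

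The groups were then compared for recurrence. A CDS site lay within 15 nt of a CDS site of another DENR library in 3.51%, 4.49% and 3.60% of the DENR overexpressing sites and in 5.22% and 12.2% of the non-transfected sites. The groups did not overlap, and the means were 3.87% ± 0.541 (SD, n = 3) and 8.71% ± 4.93 (SD, n = 2), a difference of -4.84 percentage points (two-sided exact permutation p = 0.2, Benjamini-Hochberg p = 0.533 for 8 tests). No lower p than 0.2 is possible with 3 against 2 libraries. The share was not adjusted for the number of sites per list, whose part in it was not tested, and at a minimum score of 5 the sign turned, with a difference of 1.25 percentage points. Within a library sites did gather: 31.6 to 63.6% of the CDS sites of a DENR library had another of the same library within 15 nt, and 255 of the 1068 clusters had 2 positions and 63 had 3 or more.

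Of 21827 protein-coding genes, 939 (4.30%) had a CDS site in at least 1 DENR library and 104 (0.476%) in at least 2. One library alone listed 835 of them, 87 were listed in 2, 14 in 3, 2 in 4 and 1 in all 5. Sharing was low within groups as well as between them. Of the 347 genes of DENR overexpressing replicate 2, 53 were also in replicate 3, which is 15.3% of the first list and 11.2% of the second, and the non-transfected libraries shared 3 genes, 3.70% and 2.65% of their lists. Without DENR overexpressing replicate 3 the number of genes fell from 939 to 544. Genes with sites were long. Their median CDS was 2721 nt against 1176 nt over all protein-coding genes, and 11.2% of genes in the longest of 4 equal classes of CDS length had a site against 0.971% in the shortest. Sites do not measure expression, and the level of each mRNA was not used here.

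Fn1, Plec and Tnrc18 were listed in several libraries but at different places. Fn1, which encodes the matrix glycoprotein fibronectin, had 11 positions in 4 clusters: 1 in DENR overexpressing replicate 3 with a score of 5, 4 in non-transfected replicate 1 and 6 in non-transfected replicate 2, the last of these all with a score of 1. Plec, a linker of intermediate filaments, had 9 positions in 5 clusters, 2 in DENR overexpressing replicate 2, 6 in replicate 3 and 1 in non-transfected replicate 1, with summed scores of 7, 17 and 3. Tnrc18 had 9 positions in 6 clusters, 1, 2 and 3 of them in the DENR overexpressing libraries and 3 in non-transfected replicate 2, and no score above 3. No cluster of these 3 genes held 2 libraries. The histone chaperone Rbbp4 (6 positions), the disulphide isomerase Pdia6 (4), the junction protein Amotl2 (4), the ubiquitin ligase Ubr4 (4) and the guanine nucleotide exchange factor Kalrn (4) were each listed in 3 DENR libraries in the same way, in 3 separate clusters.

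Some genes gathered many positions in 1 library. Col1a2, a chain of type I collagen, had the most, 15 positions in 5 clusters and a summed score of 28, and all were in DENR overexpressing replicate 2. Col1a1, the other chain, had 9, 5 in DENR overexpressing replicate 2 and the other 4 in non-transfected replicate 2. Ahnak had 5 in DENR overexpressing replicate 2, with scores from 1 to 4, besides the IgG position. Eef2, the elongation factor that moves the ribosome along the mRNA, had 4 positions and Eef1a1, which delivers aminoacyl-tRNA, had 6, with summed scores of 14 and 13, all in DENR overexpressing replicate 3. All 6 Eef1a1 positions had their sequence in another gene as well, and are uncertain. The chaperone Hsp90ab1 had 3 positions each in DENR overexpressing replicates 2 and 3, of which 2 were uncertain.

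By function, the share of members with a CDS site was read against the 4.30% of all genes, and no list was tested. Among 10 fibroblast markers 9 had a CDS site (Col1a2, Fn1, Col1a1, Col3a1, Vim, Pdgfra, S100a4, Thy1 and Lox), S100a4 only at uncertain positions, and Pdgfrb had none, whereas 0 of 6 epithelial, 0 of 6 immune, 0 of 6 neuronal and 0 of 6 hepatocyte markers had one. The genes with sites thus included most markers of the labelled cell type, 3 of them in 2 or more DENR libraries. The median CDS of the fibroblast markers was 3291 nt. It was 1242 nt for the epithelial, 2220 nt for the immune, 1309.5 nt for the neuronal and 1338 nt for the hepatocyte markers. The part of CDS length in this contrast was not tested. In the extracellular matrix list, which shares 5 genes with the fibroblast markers, 18 of 38 members (47.4%) had sites, 7 of them in 2 or more DENR libraries, and Col4a2 of basement membranes had 6 positions. The list's median CDS was 3310.5 nt, and its members carried 0.496 positions per kb of CDS against 0.0414 over all genes. Chaperones carried 0.509, elongation and termination factors 0.651 and the fibroblast markers 1.65 positions per kb, and the remaining lists 0.428 or less.

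Chaperones had 8 of 26 members with sites (30.8%), led by Hsp90ab1 (6 positions), the mitochondrial Hspa9 (4, of which 1 was uncertain), Pdia6 (4) and Pdia3 (3). Actin and myosin genes had 9 of 30, among them the focal adhesion protein Zyx with 5 positions within 5 nt in DENR overexpressing replicate 2, and Flnc, Tln1 and Vcl with 2 each. Microtubule and motor genes had 10 of 82 (12.2%), led by Kif1c and Map4 with 2 positions each. RNA processing proteins had 13 of 106 (12.3%), with 3 positions each in Ddx39, Hnrnpa2b1 and Srsf1, of which 2 in Hnrnpa2b1 were uncertain, as was the 1 position of Hnrnpa3. Glycolysis had 1 of 15 (Hk1), the proteasome 1 of 45 (Psmd7), histones 1 of 78 (Hist1h2ae, an uncertain position) and zinc finger proteins 19 of 454 (4.19%), close to the share of all genes.

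In the translation machinery the lists differed. Ribosomal protein genes, among the shortest with a median CDS of 471 nt, had 2 of 83 members with a site (2.41%), Rpl6 with 2 positions and Rps27a with 1, and all 3 positions were uncertain. The list of initiation factors was taken by the gene symbol Eif alone, whatever the role of each member. It had 10 of 55 members with a site (18.2%), none in more than 1 DENR library. Eif3c and Eif3m had 2 positions each, and the remaining 8 (Eif4e2, Eif3a, Eif3f, Eif4a1, Eif4g2, Eif2b3, Eif4enif1 and Eif4g1) had 1, that of Eif4a1 being uncertain. Elongation and termination factors had 3 of 11 (Eef1a1, Eef2 and Eef1g) and aminoacyl-tRNA synthetases 3 of 19 (Sars, Eprs and Vars, 2 positions each).

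**Figure D3:**
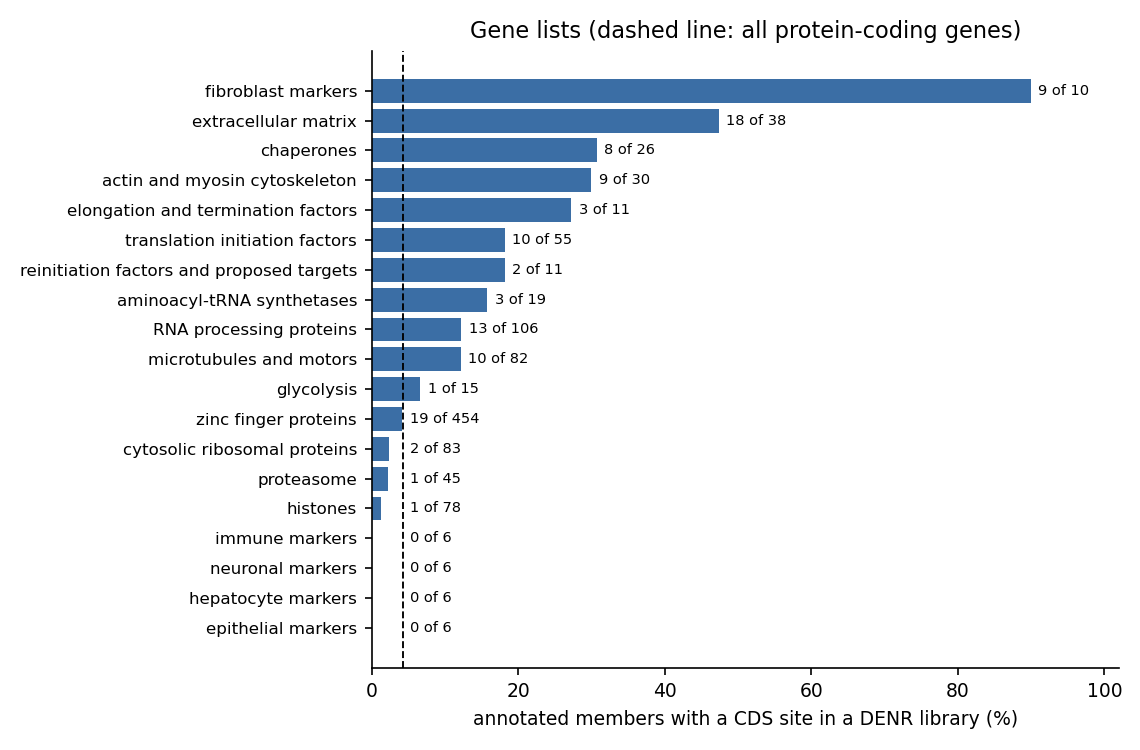
Percentage of the annotated members of each gene list with a CDS site in at least 1 DENR library (bars, with counts), beside the 4.30% of all protein-coding genes (dashed line). Fibroblast markers (9 of 10) and extracellular matrix genes (18 of 38) stand highest, and the epithelial, immune, neuronal and hepatocyte markers are at 0 of 6 each; lists differ in CDS length.

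Of 11 reinitiation factors and mRNAs proposed to depend on DENR, 2 had a CDS site (18.2%, against the 4.30% of all genes), Denr and Mcts2, each in 1 library. Atf4, Atf5, Clock, Eif2d, Etaa1, Klhdc8a, Lrrc28, Map2k5 and Mcts1 had 0 in any library. Denr had 4 positions, all in non-transfected replicate 2, at 8, 15, 16 and 23 nt from the first base of the start codon (123908117, 123908124, 123908125 and 123908132 on chromosome 5, plus strand), with scores of 1, 2, 2 and 2. The 3 libraries transfected with Denr had 0. Mcts2, a retrocopy relative of Mcts1, had 2 positions in non-transfected replicate 2 near its stop codon, and the same 31-nt sequence occurs in another gene, so these reads cannot be assigned to it with certainty. The Denr sequence is shown with its start codon in capitals to place the first of the 4 sites, at base 15 of the line.
Denr, chr5:123908103-123908132, plus strand: tgtgagATGgctactgacatttctgaatcc

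Distances to the start codon were measured on 1 transcript per site with a complete CDS, from the first base of the codon. The share of sites within 50 nt of it was 0%, 1.99% and 5.25% after overexpression and 1.74% and 4.29% without transfection. Sites spread evenly over the same coding sequences would give 2.15 to 2.74%, so DENR overexpressing replicate 3 and non-transfected replicate 2 were above that level and the other 3 libraries below it. In DENR overexpressing replicate 3 the Clopper-Pearson interval of 3.62 to 7.34% lay above its even value of 2.70%, although neighbouring sites are not independent. In non-transfected replicate 2 the interval of 1.74 to 8.65% includes the even value, and 4 of the library's 7 entries were the Denr sites. The other 3 entries made up 1.84% of all its 163 sites, below that level. The 0 of 56 in DENR overexpressing replicate 1 allows a share of up to 6.38% (Clopper-Pearson). Group means of 2.41% ± 2.65 (SD, n = 3) and 3.02% ± 1.81 (SD, n = 2) did not differ detectably (two-sided exact permutation p = 1, Benjamini-Hochberg p = 1 for 8 tests), and the sign of the difference depended on the window, as it turned positive at 100 nt.

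The 52 entries of this window were in 38 genes, and 0 of these genes had entries from 2 libraries. Only Polr2m and Emp3 had a site on the start codon itself, both in DENR overexpressing replicate 2 with scores of 3 and 2. Vim, the intermediate filament protein vimentin, had 3 positions from 4 to 8 nt and Snd1, an RNA-binding nuclease, had 2 positions at 7 and 8 nt, all in DENR overexpressing replicate 3. These genes were chosen after their values were seen, as those closest to the codon, and their sequences are shown with the start codon in capitals; base 15 of each line is the site.
Polr2m, chr9:71485781-71485810, minus strand: gcagcccgtgcgcaATGttctcgctgcccc
Emp3, chr7:45920349-45920378, minus strand: catctggcagccATGtcactcctcctgttg
Vim, chr2:13574423-13574452, plus strand: ttcgaagccATGtctaccaggtctgtgtcc
Snd1, chr6:28480558-28480587, plus strand: tccacacATGgcctcctccgcgcagagcag

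At the other end, the share of sites within 50 nt of the last base of the stop codon was 0%, 4.70% and 2.79% after overexpression and 0.870% and 5.52% without transfection. DENR overexpressing replicate 2 and non-transfected replicate 2 exceeded the even spread most, with intervals of 3.09 to 6.81% and 2.56 to 10.2%, and the latter interval includes the even value of 2.74%. The group means, 2.50% ± 2.36 (SD, n = 3) and 3.20% ± 3.29 (SD, n = 2), did not differ detectably (two-sided exact permutation p = 0.8, Benjamini-Hochberg p = 1 for 8 tests). The 53 entries lay in 33 genes, and in 1 of them, Arhgap6, the site was seen by more than 1 library, 41 nt before the end of a short isoform. Col1a2 alone gave 6 of the 26 entries of DENR overexpressing replicate 2.

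Stop codons themselves held entries in Pmpcb, Zbtb20, Col1a2 and Eef1g, among others, named after their values were seen. Pmpcb, a mitochondrial processing peptidase subunit, had 2 positions in non-transfected replicate 2 with a score of 1 each. The transcription factor gene Zbtb20 had scores of 1 and 4 at adjacent positions in DENR overexpressing replicate 3. Their sequences are shown with the stop codon in capitals; base 15 is the site.
Pmpcb, chr5:21757029-21757058, plus strand: ttggattcgtgacTAAtttttgtgatcaaa
Zbtb20, chr16:43618728-43618757, plus strand: atgtgtctgacggaTAAgtagtacctttct
Eef1g, chr19:8978086-8978115, plus strand: gcaagatcttcaagTGAacaagtcttgcca

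Between the ends no stretch of the CDS stood out in all libraries when it was cut into 10 equal bins. On a scale of 0 at the start codon to 100 at the stop codon, the mean position was 49.0, 51.1 and 47.4 after overexpression and 51.5 and 45.2 without transfection. The means of 49.1 ± 1.85 (SD, n = 3) and 48.4 ± 4.43 (SD, n = 2) were closer to each other than the replicates were (two-sided exact permutation p = 1, Benjamini-Hochberg p = 1 for 8 tests). The first of the 10 bins held 12.1%, 13.1% and 12.9% of the sites in DENR overexpressing replicates 2 and 3 and non-transfected replicate 2, and 5.36% and 7.83% in DENR overexpressing replicate 1 and non-transfected replicate 1.

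**Figure D4:**
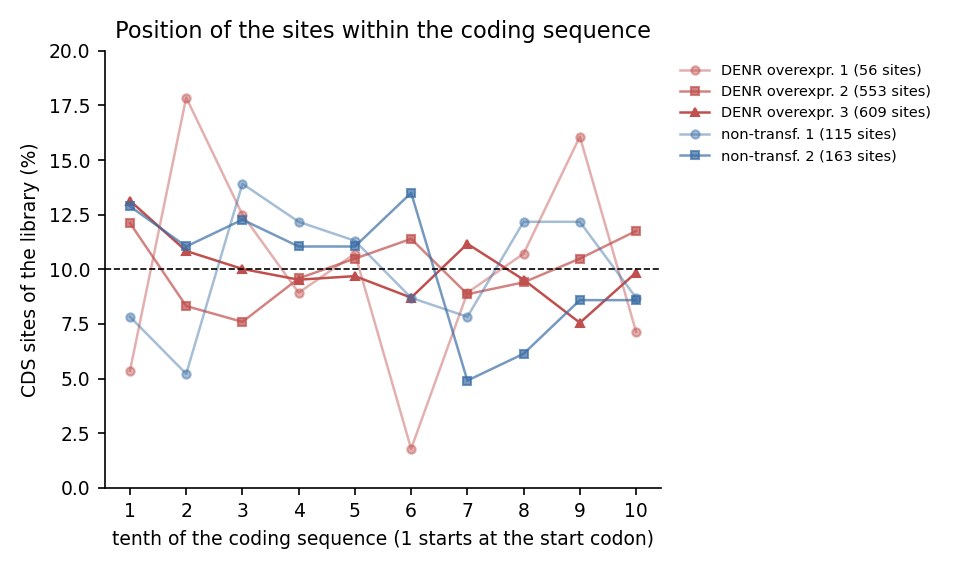
Percentage of the CDS sites of each DENR library (lines) in each of 10 equal bins of the coding sequence, from start codon to stop codon; the dashed line marks an even spread. The lines cross throughout, and the widest swings are those of DENR overexpressing replicate 1, which has 56 sites on a complete CDS.

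The reading frame of the sites was compared next. Position 1 of the codon held 48.2%, 37.8% and 38.8% of the sites in the DENR overexpressing libraries and 27.8% and 33.7% in the non-transfected libraries. An even split is 33.3%, a value that takes no account of base composition. In the coding sequences hit, guanine made up 32.3%, 18.5% and 28.4% of codon positions 1, 2 and 3. At 1 nt 3′ of the sites its mean share was 9.68% after overexpression and 10.4% without transfection. The part of base composition in the frame shares was not tested. The groups did not overlap. Their means were 41.6% ± 5.76 (SD, n = 3) and 30.8% ± 4.18 (SD, n = 2), a difference of 10.8 percentage points (two-sided exact permutation p = 0.2, Benjamini-Hochberg p = 0.533 for 8 tests), the smallest p that this number of libraries allows. Counting intervals excluded 33.3% in the 3 DENR overexpressing libraries (34.7 to 62.0%, 33.7 to 42.0% and 34.9 to 42.8%) and included it in both non-transfected ones, although neighbouring sites are not independent.

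Thymine, the DNA letter of the uridine that ultraviolet light crosslinks most readily, was read at each site. It was the base at 21.1%, 32.5% and 36.5% of the DENR overexpressing sites and at 34.8% and 37.8% of the non-transfected sites, against 21.5% of all bases in the coding sequences hit. DENR overexpressing replicate 1 was at that level and the other 4 libraries were above it. The group means of 30.02% ± 8.02 (SD, n = 3) and 36.3% ± 2.14 (SD, n = 2) did not differ detectably (two-sided exact permutation p = 0.4, Benjamini-Hochberg p = 0.8 for 8 tests).

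Among the bases 1 nt 3′ of the site, guanine had the share that varied least between libraries. At 2 nt guanine varied most, with 18.2% ± 7.03 (SD, n = 5) and values between 11.6 and 29.8%. At 1 nt 3′ of the site thymine was found in 40.0% ± 3.99 (SD, n = 5) and guanine in 9.97% ± 0.892 (SD, n = 5), the latter between 8.77 and 10.95% in every DENR library and against 26.4% of the bases in the coding sequences hit. At the site itself guanine was 21.02% ± 2.35 and at 3 nt before it thymine was 18.9%. At 1 nt 3′, sites in 3′ UTRs of these libraries had thymine in 62.3% ± 10.2 and guanine in 6.38% ± 4.25 (SD, n = 5). Sites in 5′ UTRs had thymine in 37.5% ± 18.4 and guanine in 16.5% ± 19.5 (SD, n = 5). Between libraries the 5′ UTR shares ran from 12.5 to 58.3% for thymine and from 0 to 50% for guanine. The base composition of the UTRs themselves was not measured here, so these values are given side by side only. Over the 1471 distinct CDS positions of the DENR libraries, 144 (9.79%) had a guanine next, and 15 of the 16 triplets with a middle guanine, counted from the site, were rarer at sites than among all overlapping triplets of these coding sequences. The 8 triplets that start with TT or TA made up 23.1% of the positions against 7.83% of the coding triplets. The highest ratios were those of TAT (4.82-fold, 56 positions) and TTA (4.25-fold, 46 positions), and CGG and CGA had 0. This pattern was noticed in the data and carries no test.

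**Figure D5:**
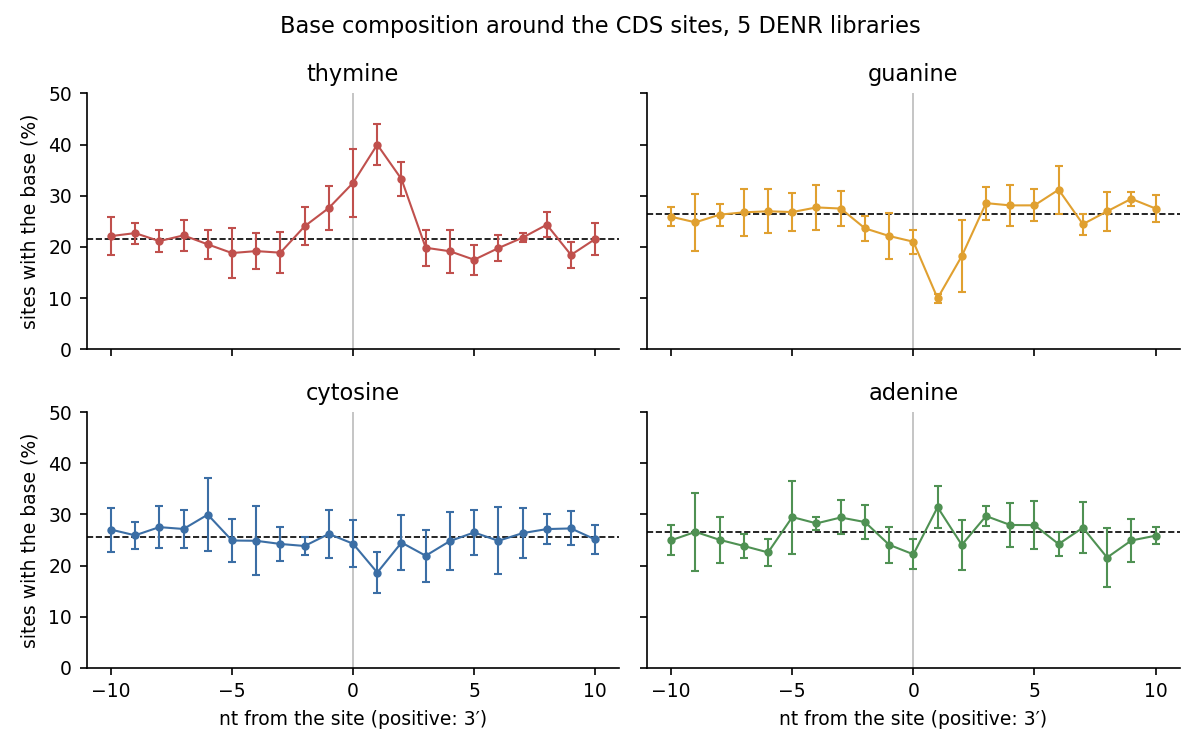
Percentage of CDS sites with each base from 10 nt before to 10 nt after the site, as the mean of the 5 DENR libraries with SD bars; dashed lines give the base's share in the coding sequences hit. Thymine peaks at 1 nt 3′ of the site (40.0%), where guanine is lowest (9.97%).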

How the data were processed

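The deposited files are lists of crosslink sites with a signed score per position. The authors mapped reads to mm10 with Bowtie (per the labels' processing notes, Bowtie2), removed reads that shared a molecular identifier and start, and called sites in each library with iCount peaks (flank 15 nt); 6 file headers add 100 permutations, a false discovery rate of 0.05 and regions treated separately, where the published methods name the option for regions as one, and 1 list has no header. Only passing sites are listed, so library depth is unknown. A site's gene, distances and bases came from GENCODE M21 annotation and transcripts, preferring named genes, complete CDS and the APPRIS principal transcript; gene lengths use the longest CDS. Sites on the other strand were not used. Group means over libraries were compared by two-sided exact permutation (10 splits for 3 against 2, 21 for 5 against 2), adjusted by Benjamini-Hochberg over 8 tests, so none could reach 0.05, and p-values measure only the spread between these libraries. Clopper-Pearson 95% intervals cover counting error only.

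Genes named were the 10 in most DENR libraries, the 10 with most positions, the 10 with the highest summed score, those of clusters with 2 or more libraries, up to 4 per list, those with IgG sites and 10 named whatever their values. Of the genes examined, 1 is not reported here. Members and lists were chosen with earlier results of these data known. For 2000 simulated sites the true gene was among those hit in 2000, as their placement in annotated CDS requires. The simulated transcript was the chosen one for 961 sites, and all 961 had the right offset. Distances were not checked for the rest. Software was Python 3.11.15 with scipy 1.17.1, pandas 2.3.3 and numpy 2.4.6.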

Additional observations from a re-analysis of the deposited data

How the results depend on the processing

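Differences are DENR overexpressing minus non-transfected, in percentage points, unless stated, and none passed 0.05 under any setting, which the number of libraries does not allow. The CDS share differed by 1.15 as reported, by -0.0348 without DENR overexpressing replicate 3 and in the replicate block, and between -0.0348 and 2.25 when libraries were left out one by one. The start-codon difference of -0.602 became 0.158 with the longest CDS and 1.37 within 100 nt, and ranged from -2.02 to 0.675 on leaving out libraries. The stop-codon difference of -0.698 became 0.598 at a minimum score of 2, 0.0490 with sites merged and 0.122 in a window of 100 nt, with a range of -3.02 to 1.63 over the left-out libraries, and went to -15.9 at a minimum score of 5. The mean position differed by 0.768 as reported, by -5.78 at a minimum score of 5 and from -2.37 to 3.90 on leaving out libraries. Recurrence within 15 nt differed by -4.84 as reported, by 1.25 at a minimum score of 5 and from -8.51 to -1.70. A minimum score of 5 left 1 to 41 CDS sites per DENR library. For these reversals the cause was not tested.

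The share at codon position 1 and of thymine kept their direction under every setting tried, from 7.49 to 13.8 and from -9.52 to -1.80 on leaving out libraries, and the former was 30.6 at a minimum score of 5. DENR minus IgG in the CDS share kept its sign but not its size: it was 2.73 as reported, 2.03 to 3.17 without 1 library, 0.467 at a minimum score of 5, 0.499 weighted by score and 8.46 with sites merged. The 16 recurring clusters became 11 without DENR overexpressing replicate 2, and 939 genes became 544 to 912 without 1 library. Removing the recurring clusters, an alternative chosen after seeing the data, reversed none of the 7 differences recomputed.

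In the replicate block, same-numbered libraries of the groups were paired (2 pairs, smallest p 0.5). Their deviations over 10 equal bins of the CDS correlated at 0.319 and 0.211, but labels name no shared batch, so the numbers were not taken as pairs. The block reversed the CDS share and changed no other direction.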
